A study of Saccharomyces cerevisiae with 96 samples.

Results

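The small subunit processome genes examined here are 42 yeast genes, taken by their systematic names as the UTP, IMP and MPP10 genes and other genes for components of the processome, out of 6598 mRNA entries in the count tables. All 42 had a row in the transcriptome tables and in the tables of unfragmented NAD captureSeq. The small subunit processome is the large nucleolar particle that forms on the nascent precursor of ribosomal RNA, around the U3 small nucleolar RNA, and in which the 18S rRNA part is folded, modified and cut free. Its subcomplexes UtpA, UtpB and UtpC, the Mpp10 complex and a set of RNA helicases and enzymes join it in turn. In budding yeast the genes for these factors belong to the ribosome biogenesis regulon, which is transcribed strongly in cells that grow fast on glucose and weakly in cells that run out of it.

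The study asked which enzymes remove NAD from the 5′-end of yeast RNAs. All 8 strains share the BY4742 background (MATα his3Δ1 leu2Δ0 lys2Δ0 ura3Δ0), and BY4742 itself is the wild type (WT). The single mutants are npy1Δ (npy1::kanMX4, which lacks the Nudix pyrophosphohydrolase Npy1), dxo1Δ (dxo1::natNT2) and rai1Δ (rai1::hphNT1), the last 2 lacking members of the DXO family of 5′-end surveillance enzymes. The combined mutants dxo1Δnpy1Δ, dxo1Δrai1Δ, rai1Δnpy1Δ and dxo1Δrai1Δnpy1Δ (the triple mutant) came from crosses of these followed by sporulation and selection of random spores. All were grown in YPD, a rich glucose medium, at 30 °C to log phase. Each group has 3 biological replicates, which gives 24 transcriptome libraries and 48 unfragmented capture libraries of the 96 samples of the series.

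For mRNAs the counts cover a 5′ region around the translation start, of the same nominal length for every gene, and for the transcriptome the coding sequence (CDS) as well. A level below is given in RPM, a gene's 5′-region reads scaled to 1000000 reads in mRNA 5′ regions of the same library. Since the windows have the same length, levels of different genes need no correction for length. They rank the windows and not whole transcripts, and for genes such as UTP4 and UTP9 the 5′ region and the coding sequence differed widely. The transcriptome libraries held 1193668 to 2393366 mRNA 5′-region reads. The deleted genes behaved as labelled. NPY1 had 430 to 488 coding-sequence reads per WT library and at most 14 in any strain that lacks it. DXO1 had 4 to 18 reads in the dxo1Δ strains against 89 to 144 in WT, and RAI1 had 0 to 5 reads in the rai1Δ strains against 368 to 455 in WT. The WT libraries stood apart from those of every deletion strain. A set of 10 glucose-repressed genes, among them PCK1, the gluconeogenic enzyme that yeast makes when glucose is gone, took 0.746 to 0.784% of mRNA 5′-region reads in WT and 0.00545 to 0.0108% in the 21 libraries of the deletion strains. WT and npy1Δ were sequenced in 1 run and the other 6 strains in another, so for these 6 strains the deletion and the run cannot be told apart in the comparison with WT. For npy1Δ the run was shared, yet the glucose-repressed genes differed from WT as much, and their part in the results below was not tested.

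The 42 genes together took a small share of mRNA 5′-region reads in WT and a larger share in every deletion strain. The share was 0.0410 to 0.0499% in the 3 WT libraries, with a mean of 0.0461% ± 0.0046 (SD, n = 3). In npy1Δ it was 0.304% ± 0.0128 (SD, n = 3), and over all 21 libraries of the deletion strains it ran from 0.297 to 0.415% with a median of 0.354%. No library of a deletion strain overlapped with WT. Over coding sequences the members took 0.0557 to 0.0682% of mRNA reads in WT and 0.552 to 0.839% in the deletion strains. In bulk RNA a higher share of reads can mean more RNA of these genes or less of others, and the counts alone do not separate these.

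**Figure D1:**
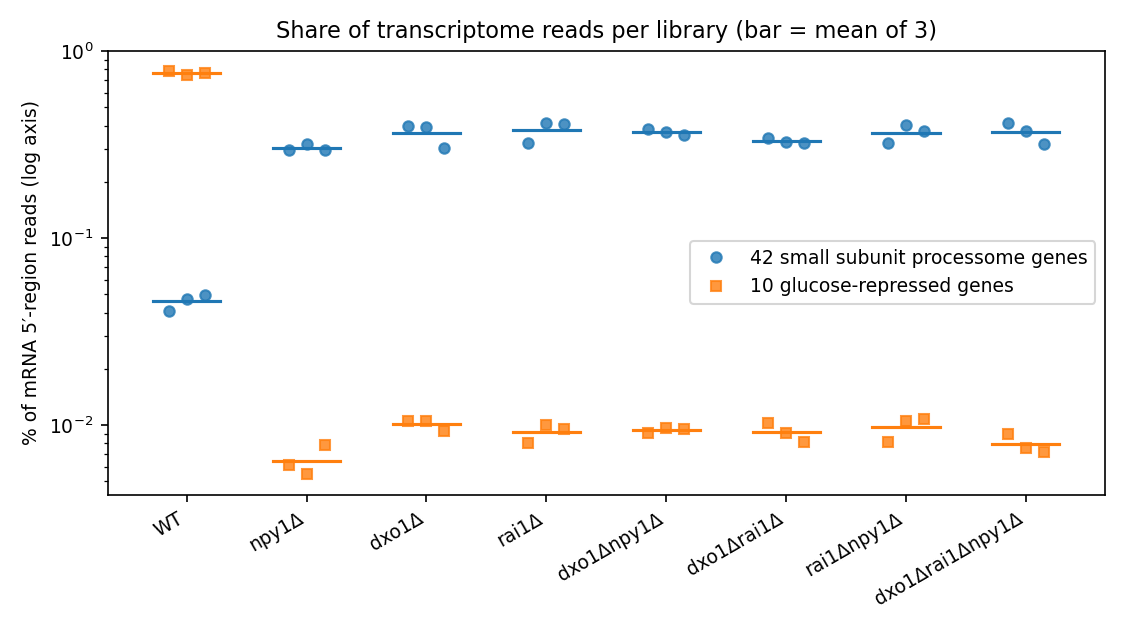
Each point is a transcriptome library, placed by the percentage of its mRNA 5′-region reads (log axis) that fell on the 42 processome genes (blue circles) or on 10 glucose-repressed genes (orange squares), for the 8 strains, with a bar at the mean of 3. The processome genes sit at 0.0410 to 0.0499% in WT and at 0.297 to 0.415% elsewhere, while the glucose-repressed genes sit at 0.746 to 0.784% in WT and at no more than 0.0108% elsewhere.

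Nearly every processome gene was raised against WT in all 7 deletion strains. An RNA was called raised when its log2 fold change was above 0.5 and its p-value in edgeR's quasi-likelihood test, adjusted by Benjamini-Hochberg over all RNAs tested, was below 0.05. In npy1Δ 40 of the 41 members with enough reads to be tested were raised, against 34.5% of the 6920 RNAs tested, and 34 of them were raised beyond 4-fold, against 15.1% of all RNAs. The median log2 fold change of the members was 3.15, where that of all RNAs was 0.03. UTP9 alone of the 41 was not raised in dxo1Δ, rai1Δ, dxo1Δnpy1Δ, dxo1Δrai1Δ, rai1Δnpy1Δ and the triple mutant, so that 40 were raised in each of them, where 36.8, 38.7, 36.9, 38.4, 37.9 and 39% of all RNAs were raised. The medians of the members in these 6 strains were 3.30, 3.87, 3.51, 3.51, 3.73 and 3.69. For these 40 members, all 21 libraries of the deletion strains lay above all 3 WT libraries, a comparison in which the 7 strains share the same WT libraries. The share of all RNAs with all 21 libraries above WT was not computed, so this count has no matching background. For npy1Δ alone, 37.4% of all RNAs had every library above every WT library. Lowered RNAs made up 33% of all RNAs in npy1Δ, and a single member was among them. In dxo1Δnpy1Δ, where 34.8% were lowered, that member was lowered again. Over coding sequences all 42 members were raised in each of the 7 strains, with a median log2 fold change of 3.60 in npy1Δ, where 36.3% of all RNAs were raised. In the other strains, in the order above, 38.5, 38.8, 38.4, 38.6, 38.4 and 38.5% of all RNAs were raised over coding sequences.

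The size of these changes depends on how the libraries are scaled. With total read counts in place of edgeR's TMM factors, the median of all RNAs moved by 1.501 (log2) in npy1Δ and the calls over all RNAs became 4755 raised and 762 lowered, against 2387 and 2283 with TMM. In the other 6 strains the shift was 1.70 to 1.91. Relative to that median the members were raised by a median of 3.10 (log2) with total counts and by 3.12 with TMM.

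The UtpA proteins bind first to the 5′ external spacer of the precursor RNA. Of the 7 UtpA genes, 5 were raised in npy1Δ, 1 was lowered and UTP4 could not be tested. UTP10 (YJL109C), for a long protein of helical repeats, stood at 1.48, 2.61 and 3.96 RPM in WT and at 69.9, 63.9 and 61.7 in npy1Δ, and in the other 6 strains at 70.4 to 132 with a median of 110. Its log2 fold change in npy1Δ was 4.22 (SE 0.39, adjusted p = 1.612e-10 in edgeR). NAN1 (YPL126W), for the subunit also called Utp17, had levels of 8.13, 9.77 and 9.62 in WT and of 115, 108 and 81.7 in npy1Δ, a log2 fold change of 3.15 (SE 0.25, adjusted p = 3.267e-10 in edgeR). Both genes had WT levels below 10 and no overlap between the groups.

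UTP9 (YHR196W) differed from the other UtpA genes. Its 5′ region gave 143, 150 and 148 RPM in WT, the highest WT level of any member and 31.8% of all WT reads on the 42 genes. In npy1Δ the level was 119, 130 and 129, and in the other 6 strains it ran from 124 to 197 with a median of 160. The log2 fold change in npy1Δ was −0.54 (SE 0.13, adjusted p = 0.00148 in edgeR), and in dxo1Δnpy1Δ it was −0.61. Over the coding sequence UTP9 moved the other way, from 6.64, 9.08 and 8.08 reads per 1000000 coding-sequence reads in WT to 71.0, 84.7 and 80.0 in npy1Δ, with a log2 fold change of 3.60 (SE 0.10, adjusted p = 2.672e-10 in edgeR) in npy1Δ. With total-count scaling the 5′-region value was 0.93, so that its direction depends on the scaling. The gene upstream of UTP9, NVJ1, lies on the same strand, and whether its transcripts gave reads in the UTP9 region was not tested. UTP4 (YDR324C), named here after its values were seen, had the opposite pattern of counts. Its 5′ region had no read in WT and 0, 1 and 1 reads in npy1Δ, while its coding sequence was raised by 5.20 (log2, SE 0.15).

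The UtpB subcomplex, built mostly of β-propeller proteins, follows UtpA onto the precursor. All 6 of its genes were raised in npy1Δ, with a median log2 fold change of 3.56 in the 5′ region and of 4.34 over the coding sequence. UTP21 (YLR409C) had levels of 2.22, 2.61 and 0.566 in WT and of 78.7, 75.1 and 83.0 in npy1Δ, which is among the steepest rises of the 42 genes (log2 fold change 5.16, SE 0.49, adjusted p = 3.563e-11 in edgeR). UTP6 (YDR449C) went from 0.739, 0.651 and 1.70 to 33.7, 35.8 and 31.5, and lay higher still in the other strains, at 54.1 to 85.2. PWP2 (YCR057C), for the subunit around which UtpB is organised, stood at 37.0, 37.1 and 31.1 in WT and at 216, 202 and 190 in npy1Δ (log2 fold change 2.23, SE 0.16). DIP2 (YLR129W) was the least raised gene of the group. Its 5′-region level was 44.4, 53.4 and 48.7 in WT and 88.0, 112 and 101 in npy1Δ (log2 fold change 0.73, SE 0.16, adjusted p = 4.32e-04 in edgeR), although over its coding sequence the log2 fold change was 3.13 (SE 0.10). After UTP9, DIP2 and PWP2 had the highest WT levels in the 5′ region.

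The UtpC subcomplex is represented by UTP22 and RRP7, whose proteins form a pair that also occurs with a regulator of ribosomal protein genes. UTP22 (YGR090W) had levels of 11.8, 13.0 and 22.1 in WT and of 215, 251 and 257 in npy1Δ (log2 fold change 3.60, SE 0.21, adjusted p = 1.065e-11 in edgeR). In the other 6 strains UTP22 lay at 179 to 405. It was the member with the most 5′-region transcript reads over the deletion strains, at 7.22% of such reads on the 42 genes. RRP7 (YCL031C) rose less, from 14.8, 34.5 and 36.2 to 102, 101 and 118, a log2 fold change of 1.58 (SE 0.22) that was close to the 1.24 (SE 0.11) over its coding sequence.

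The Mpp10 complex, in which Imp3 and Imp4 help the U3 RNA to pair with the precursor, showed the same spread. IMP4 (YNL075W) stood at 2.96, 3.26 and 4.53 in WT and at 54.4, 48.7 and 63.0 in npy1Δ (log2 fold change 3.59, SE 0.35). IMP3 (YHR148W) stood at 0.739, 0.651 and 3.96 in WT and at 22.3, 25.2 and 16.7 in npy1Δ (log2 fold change 3.14, SE 0.56). MPP10 (YJR002W) had higher WT levels, 7.39, 10.4 and 9.62, and 27.4, 37.5 and 36.7 in npy1Δ (log2 fold change 1.56, SE 0.26). The range of each gene in npy1Δ lay above its range in WT.

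The RNA helicases drive rearrangements and release steps in the particle. Ecm16, also called Dhr1, dissociates the U3 RNA from the precursor, and Dhr2 and Rok1 act at other steps. ECM16 (YMR128W) went from 2.22, 1.30 and 2.83 to 15.5, 14.7 and 16.7 in npy1Δ (log2 fold change 2.52, SE 0.47). ROK1 (YGL171W) went from 0.739, 1.30 and 1.70 to 19.7, 24.0 and 19.3 (log2 fold change 3.66, SE 0.56). DHR2 (YKL078W) had 1 read over the 3 WT libraries and 61 over the 3 npy1Δ libraries, a ratio of 54.7 with a 95% counting interval of 9.46 to 2196 (exact binomial, counting error only). Its level in npy1Δ, 15.0, 11.7 and 7.72, was lower than in most libraries of the other strains, which ran from 12.8 to 43.3.

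BMS1 (YPL217C) encodes a GTPase that acts with the endonuclease-like protein Rcl1. It stood at 5.18, 5.21 and 7.92 in WT and at 55.4, 70.4 and 45.7 in npy1Δ (log2 fold change 2.89, SE 0.30). KRE33 (YNL132W) encodes the cytidine acetyltransferase that modifies 18S rRNA. It stood at 1.48, 1.30 and 2.26 in WT and at 88.6, 111 and 96.5 in npy1Δ, and its log2 fold change of 5.48 (SE 0.46, adjusted p = 4.176e-12 in edgeR) was the largest of the 41 in the 5′ region. The 2 rRNA-modifying enzymes had the highest median of all groups, 5.32 (log2), against 2.78 for the 15 remaining genes.

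Among these 15 remaining genes every one was raised in npy1Δ, from 1.74 to 5.44 on the log2 scale. UTP23 (YOR004W), for a protein that takes part in releasing the snR30 RNA, had 3 reads over the WT libraries and 197 over those of npy1Δ, a ratio of 58.9 with a counting interval of 19.9 to 288. UTP14 (YML093W), whose product activates the helicase Ecm16, went from 2.96, 3.26 and 2.26 to 51.3, 49.8 and 50.2 (log2 fold change 3.84, SE 0.37). SOF1 (YLL011W), for a β-propeller protein, went from 1.48, 1.30 and 1.70 to 29.5, 29.3 and 28.9 (log2 fold change 3.92, SE 0.49). The replicates of UTP14 and SOF1 lay close together in both strains. NOC4 (YPR144C), whose product pairs with Nop14, was nearer the lower end of the group, at 2.96, 7.16 and 4.53 in WT and 25.4, 21.1 and 19.3 in npy1Δ (log2 fold change 1.84, SE 0.35). ENP1 (YBR247C), for a factor that stays with the particle into the cytoplasm, went from 0.739, 1.30 and 3.96 to 10.9, 22.3 and 19.9 (log2 fold change 2.69, SE 0.57).

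The other members were not picked by the naming rule, and the following are given after their values were seen. EMG1 (YLR186W), for the methyltransferase that modifies a pseudouridine of 18S rRNA, went from 2.96, 3.91 and 4.53 to 190, 169 and 159 RPM in npy1Δ (log2 fold change 5.16, SE 0.32, adjusted p = 7.70e-13 in edgeR). RRP5 (YMR229C), whose product is needed for both ribosomal subunits, went from 4.44, 10.4 and 7.92 to 243, 290 and 232 (log2 fold change 4.73, SE 0.26). Both rose by about as much over their coding sequences, by 4.898 and 4.58 on the log2 scale. SAS10 (YDL153C) had the smallest change of the 15 remaining genes, from 2.96, 7.16 and 6.79 to 24.9, 27.6 and 19.3 (log2 fold change 1.74, SE 0.33). UTP5 (YDR398W) and LCP5 (YER127W) resembled PWP2 and DIP2 in that the coding sequence moved more than the 5′ region, by 3.86 against 1.95 for UTP5 and by 4.04 against 2.08 for LCP5. UTP30 (YKR060W) had the reverse, with 3.22 over the coding sequence and 4.88 in the 5′ region.

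The other 6 deletion strains were compared with the same WT libraries as npy1Δ, and single members are set side by side here. KRE33 had log2 fold changes of 5.63 in dxo1Δ, 5.46 in rai1Δ and 5.36 in the triple mutant, and UTP21 had 5.14, 5.12 and 5.02. UTP6 had 5.40, 5.70 and 5.56, above its 4.58 in npy1Δ. At the lower end DIP2 had 0.54, 1.01 and 0.66 and RRP7 1.93, 2.40 and 2.44. UTP9 was at −0.50, −0.09 and −0.12 and was called in none of these 3 strains. In dxo1Δ its adjusted p in edgeR was 0.0018, but the change did not reach the limit of 0.5.

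**Figure D2:**
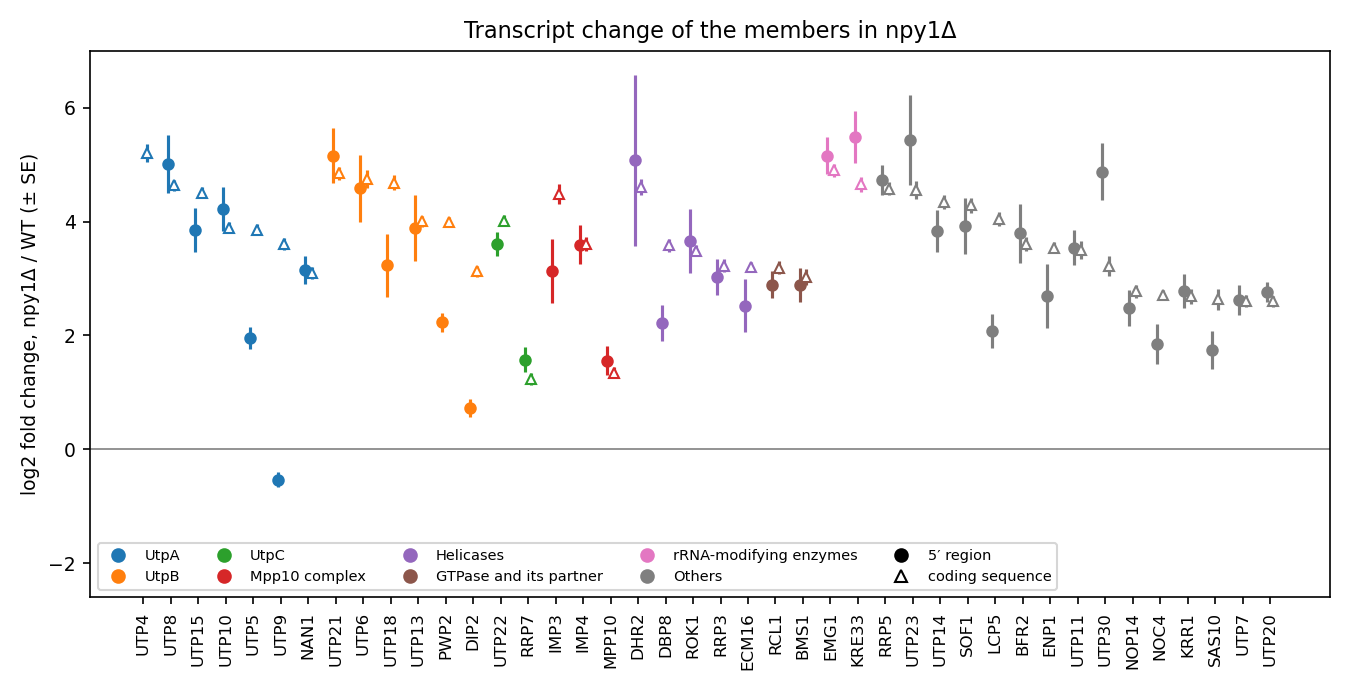
The log2 fold change of each processome gene between npy1Δ and WT (vertical axis, bars are the standard error, 3 libraries against 3) is drawn for the 5′ region (filled circles) and the coding sequence (open triangles), coloured by subcomplex or role. UTP9 is the gene below 0 in the 5′ region, at −0.54, DIP2 is the next lowest at 0.73, and all triangles lie above 0, between 1.24 for RRP7 and 5.20 for UTP4.

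Other genes of ribosome production moved with the processome genes. In npy1Δ all 29 genes on a list of large subunit assembly factors were raised (median log2 fold change 3.30), as were all 7 subunits that only RNA polymerase I has (median 4.58). Of 28 other small subunit factors 25 were raised (median 2.50), and of 132 ribosomal protein genes 111 were raised and 5 lowered. The 10 glucose-repressed genes were all lowered in the 5′ region, with a median of −8.08. Over coding sequences 9 were lowered and ADH2, the alcohol dehydrogenase for growth on ethanol, was raised. Ribosomal protein genes took 0.818 to 0.956% of mRNA 5′-region reads in WT and 9.85 to 14.0% in the deletion strains, so that the difference between WT and the deletion strains extended far beyond the processome. Neither their part nor that of the glucose-repressed genes in the values of the members was tested.

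Among the 7 deletion strains most members differed less than they did from WT. The highest strain mean of a member exceeded its lowest by a median of 1.61-fold over 41 members, and by 3.22-fold for DHR2, the most variable of them. The same spread over all RNAs was not computed. The 9 comparisons of strains that differ by 1 deletion address what a further deletion adds. In dxo1Δnpy1Δ against dxo1Δ, in rai1Δnpy1Δ against rai1Δ and in the triple mutant against rai1Δnpy1Δ no member was called with edgeR, at a background of 0.0145, 0.0287 and 0.0865% of all RNAs raised and of 0.0145, 0.0287 and 0.0288% lowered. In these comparisons 1, 0 and 1 members had a higher level and 0, 2 and 0 a lower level at an unadjusted p below 0.05. DESeq2 also called none of them.

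The 2 comparisons with calls on many members both have npy1Δ as the reference, which was sequenced in another run than the strain set against it, so that the added deletion and the run cannot be told apart. In dxo1Δnpy1Δ against npy1Δ 14 members were raised and 2 lowered, against 12.5 and 12.7% of all RNAs. In rai1Δnpy1Δ against npy1Δ 17 were raised and 2 lowered, against 16.8 and 16%. Both comparisons share the npy1Δ libraries. DHR2 had the largest change in both. It stood at 15.0, 11.7 and 7.72 RPM in npy1Δ, at 37.9, 37.4 and 27.6 in dxo1Δnpy1Δ and at 34.6, 37.2 and 35.1 in rai1Δnpy1Δ. The log2 fold changes were 1.49 and 1.52. ROK1 stood at 51.4, 48.5 and 51.9 in dxo1Δnpy1Δ and at 47.9, 64.9 and 56.3 in rai1Δnpy1Δ, above its npy1Δ levels by 1.19 and 1.34 on the log2 scale. NOC4 stood at 49.4, 59.6 and 49.4 and at 56.5, 63.7 and 55.6, above npy1Δ by 1.19 and 1.32. The libraries of npy1Δ lay below those of both double mutants for each of these 3 genes, where 21.1 and 24.4% of all RNAs had every library of the double mutant above every npy1Δ library. IMP3 was higher than in npy1Δ by 0.69 and 1.15, SOF1 by 0.71 and 1.07, and UTP6 by 0.86 and 0.94 on the log2 scale. BMS1 was lower than in npy1Δ in both, with log2 fold changes of −0.59 and −0.61. With total-count scaling the median of all RNAs lay at 0.20 and 0.27, and 18 and 25 members were raised and none lowered, so that BMS1 was no longer called. Over coding sequences the counts were 12 raised and 0 lowered for dxo1Δnpy1Δ and 8 raised and 1 lowered for rai1Δnpy1Δ, where 8.98 and 14.5% of all RNAs were raised and 8.46 and 12.5% lowered.

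Within a run, few members were called. In dxo1Δrai1Δ against dxo1Δ 2 members were lowered and none raised, against 5.54 and 7.6% of all RNAs. KRE33 stood at 144, 130 and 79.0 in dxo1Δ and at 83.7, 79.8 and 84.8 in dxo1Δrai1Δ (log2 fold change −0.51, adjusted p = 0.036 in edgeR), and 1 of the dxo1Δ libraries lay below all 3 of dxo1Δrai1Δ. UTP20, named after its values were seen, fell by 0.58 on the log2 scale. Without dxo1Δ replicate 1 no member was called in this comparison, and without dxo1Δ replicate 3 there were 3. In dxo1Δrai1Δ against rai1Δ UTP10 was the 1 member lowered and none was raised, against 0.403 and 0.288% of all RNAs, from 113, 117 and 118 to 76.0, 86.1 and 84.2 (log2 fold change −0.57, adjusted p = 0.0442 in edgeR). With total-count scaling, which shifted the median of all RNAs by −0.14, 16 members were lowered, and over coding sequences none was. The number of lowered members was 13 without rai1Δ replicate 1, 6 without dxo1Δrai1Δ replicate 3 and 0 when any other library was left out.

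The triple mutant had 6 members raised and 1 lowered against dxo1Δnpy1Δ, against 11.5 and 10.8% of all RNAs, and 4 raised and none lowered against dxo1Δrai1Δ, against 0.431 and 0.374%. RRP7 was raised in both, from 154, 122 and 119 in dxo1Δnpy1Δ and 146, 144 and 143 in dxo1Δrai1Δ to 222, 202 and 171, by 0.64 and 0.53 on the log2 scale. UTP8, a UtpA gene named after its values were seen, was raised by 0.73 and 0.64. UTP22 was the lowered gene, from 283, 371 and 405 in dxo1Δnpy1Δ to 234, 218 and 184, a log2 fold change of −0.68. These 3 genes showed no overlap between the triple mutant and the strain it was compared with, while 21.3% of all RNAs had every triple mutant library above and 20% had it below every dxo1Δnpy1Δ library, and 10.6% had it above every dxo1Δrai1Δ library. Against dxo1Δrai1Δ the count was 6 without dxo1Δrai1Δ replicate 3, 5 without triple mutant replicate 3 and 0 when any other library was left out, and over coding sequences no member was raised in either comparison.

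In NAD captureSeq the enzyme ADPRC swaps the nicotinamide of an NAD cap for an alkyne, which is then joined to biotin so that the RNA can be held on streptavidin. Libraries without ADPRC (−ADPRC) give the background. Processome transcripts were captured in every deletion strain and hardly at all in WT. The 3 WT libraries with ADPRC (+ADPRC) held 85 reads on the 42 genes, on 19 of them, and the WT controls held 2. In npy1Δ there were 3680 reads with ADPRC and 147 without, and in the triple mutant 8036 and 80. Scaled to 1000000 reads of any RNA in the library, the members took 3.19 to 8.95 reads in the +ADPRC libraries of WT and 119 to 471 in those of the deletion strains. In every strain the +ADPRC libraries lay above the controls, which ran from 0 to 0.568 in WT and from 0.572 to 21.0 in the deletion strains. The same held in every strain for mRNA reads as a whole, at 1.91 to 12.6% of all reads with ADPRC and 0.102 to 1.15% without. The separation is thus not particular to the members. Since the members' transcript levels were lower in WT by the folds given above, the low number of captured reads in WT does not by itself show less NAD per transcript.

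**Figure D3:**
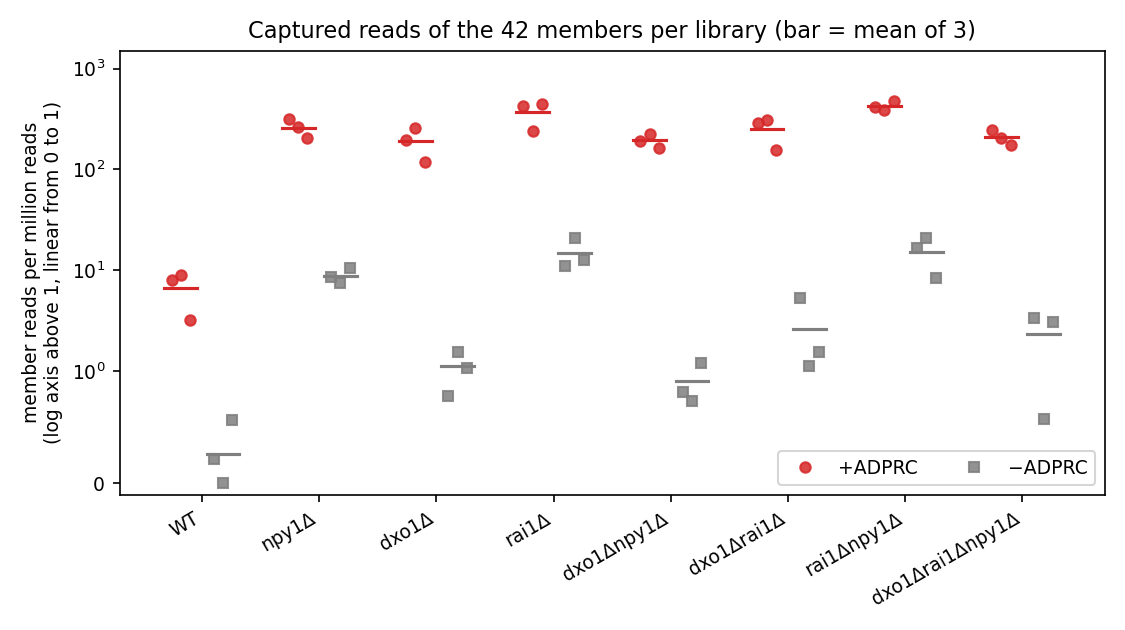
Each point is a capture library, placed by its reads on the 42 processome genes per 1000000 reads (log axis above 1, linear below), with ADPRC (red circles) and without (grey squares), for the 8 strains, and the bar marks the mean of 3. In all 8 strains the red points lie above the grey ones, in WT at 3.19 to 8.95 against 0 to 0.568 and in npy1Δ at 204 to 314 against 7.41 to 10.6.

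A member was called enriched when its +ADPRC level exceeded the control more than 1.41-fold with an unadjusted p below 0.05 in edgeR, the limits the study used. Enriched members numbered 34 of 41 tested in npy1Δ, 41 of 41 in dxo1Δ, 38 of 40 in rai1Δ, 39 of 41 in dxo1Δnpy1Δ, 41 of 42 in dxo1Δrai1Δ, 38 of 39 in rai1Δnpy1Δ and 40 of 42 in the triple mutant. Over all RNAs tested the enriched share was 51.1, 87.4, 67.7, 67, 74.5, 83.3 and 60% in the same order. The limit on the base mean took both kinds of library together, so a member with almost no control reads was tested through its +ADPRC reads. In dxo1Δ the members had 2801 reads with ADPRC and 19 without. Being tested and being enriched are therefore not independent, for the members or for all RNAs. None was depleted in any strain with edgeR, although UTP15 in rai1Δ was called depleted in 4 of the 6 fits that left out 1 library (+ADPRC replicate 2 or any control). In the triple mutant, where the replicates with equal numbers deviated together, the fit with a replicate block called 29 members in place of 40. Leaving out +ADPRC replicate 2 brought the count in rai1Δ down to 16, and leaving out +ADPRC replicate 1 or 3 brought that in npy1Δ down to 23. Of the 42 members, 28 were enriched in all 7 deletion strains in the fits without a block. The share of all RNAs enriched in all 7 was not computed, so this count has no background beside it.

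In WT 3 members could be tested, at a background of 50.9%. RRP7 was enriched, with 6, 12 and 0 reads with ADPRC and none without, at least 3.89-fold when the control is set at 3 reads over the group (adjusted p = 0.041 in edgeR). It lost the call with DESeq2 (adjusted p = 0.177), with the replicate block (adjusted p = 0.263 in edgeR) and without −ADPRC replicate 2, and it was not tested with the stricter filter of filterByExpr or without +ADPRC replicate 2. MPP10, with 7, 6 and 0 reads, did not pass (adjusted p = 0.095 in edgeR).

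DHR2 was captured in all 7 deletion strains from a low transcript level in its 5′ region. It had 58, 12 and 50 reads with ADPRC in npy1Δ and none without, an enrichment of at least 20.9-fold (adjusted p = 8.898e-04 in edgeR). In dxo1Δ it had 70, 110 and 37 reads against 1 over the 3 controls, and in rai1Δnpy1Δ 22, 22 and 12 against none, at least 13.3-fold. All 3 WT libraries had no read of it.

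NAN1 and UTP21 gave further examples from UtpA and UtpB. NAN1 had 65, 93 and 58 reads with ADPRC in dxo1Δ and none without, at least 39.4-fold. In the triple mutant it had 156, 278 and 223 against none, at least 36.4-fold. UTP21 had 77, 85 and 31 reads in dxo1Δ against none, at least 35.2-fold, and 65, 319 and 47 in dxo1Δnpy1Δ against none, at least 27.0-fold. Both genes were read in all +ADPRC libraries of the strains named for them. In other strains they had a few control reads, such as 2 for NAN1 in dxo1Δnpy1Δ, 1 for UTP21 in the triple mutant and 1, 9 and 0 for UTP21 in npy1Δ.

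SOF1 had more captured reads in npy1Δ, at 123, 77 and 87, than most members, against 7 over the controls (log2 fold change 4.35, SE 0.90, adjusted p = 9.879e-04 in edgeR). UTP14 had 53, 42 and 55 reads in npy1Δ against 14 in the controls (log2 fold change 2.65, SE 0.72, adjusted p = 0.00735 in edgeR), and this call was lost when any +ADPRC library was left out. In rai1Δnpy1Δ UTP14 had 30, 19 and 15 reads. RRP7 had 63, 13 and 46 reads in npy1Δ against none, at least 21.3-fold.

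Members of other groups were captured too. KRE33 had 54, 30 and 42 reads with ADPRC in npy1Δ against 6 over the controls, 20, 24 and 17 in dxo1Δ against 2 and 24, 11 and 9 in rai1Δ against none. ROK1 had 12, 23 and 23 reads in npy1Δ and 12, 12 and 15 in dxo1Δ, and no control read in either. MPP10 had 39, 20 and 10 reads in npy1Δ, 38, 37 and 13 in dxo1Δ and 77, 21 and 6 in rai1Δ, with no control read in these strains. ECM16 was among the members with few reads, at 6, 2 and 13 in npy1Δ and 9, 7 and 2 in dxo1Δ, and it too had none in the controls. The total reads of the 3 rai1Δ libraries with ADPRC differed as well, and in RPM MPP10 stood at 128, 149 and 110 and KRE33 at 40.0, 78.0 and 165 in them.

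UTP22 stood at the other end. The gene with the most 5′-region transcript reads among the members had 35 captured reads over the 21 +ADPRC libraries of the deletion strains. The median member had 579 and the highest 2335. UTP22 had 0 to 5 reads per library. In dxo1Δrai1Δ and the triple mutant, the strains in which it was tested and did not pass, it had 10 and 9 reads with ADPRC against 1 in the controls. UTP9 was also little captured, with 7, 7 and 5 reads in dxo1Δ and 15, 37 and 31 in the triple mutant.

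The members that did not pass in npy1Δ were UTP10, UTP13, UTP18, IMP3, UTP7, UTP30 and NOC4, several named after their values were seen, with 20 to 86 reads against 1 to 13 in the controls. UTP15 was unusual in its background. Of the 538 reads on members in all controls 213 were on UTP15, and in rai1Δ its controls held 57, 58 and 4 reads. The rai1Δ libraries with ADPRC held 136, 43 and 12 reads of it. In RPM these controls stood at 3249, 9986 and 3373, and the +ADPRC libraries at 227, 305 and 220. The control values are divided by small totals, 1186 to 17543 mRNA reads against 54624 to 599893 with ADPRC, so this direction depends on the scaling. With edgeR it did not pass in rai1Δ (adjusted p = 0.107), in dxo1Δnpy1Δ (adjusted p = 0.533) or in rai1Δnpy1Δ (adjusted p = 0.483). UTP4 was captured although its 5′ region was nearly empty in the transcriptome. It had 19, 17 and 22 reads in npy1Δ and 55, 149 and 116 in the triple mutant with none in the controls, at least 10.1-fold and 17.7-fold.

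A member's share of captured reads was divided by its share of 5′-region transcript reads in the same strain. This ratio measures how much of it was captured for its level in that window. Ratios with coding-sequence counts were not examined, so the ranking holds for this window only. A ratio of 1 means that the member's share was the same in both. The median ratio of the members was 0.899 in npy1Δ, 1.39 in dxo1Δ, 1.16 in rai1Δ, 1.42 in dxo1Δnpy1Δ, 1.38 in dxo1Δrai1Δ, 1.33 in rai1Δnpy1Δ and 1.13 in the triple mutant, where the median over all mRNAs with a ratio was 0.759, 0.962, 0.8996, 0.864, 0.847, 1.15 and 0.816 in the same order. The median of the members lay above that of all mRNAs in each of the 7 strains. So did those of the ribosomal protein genes, 9.50 to 14.8, and of the RNA polymerase I subunits, 0.790 to 2.59. The other small subunit factors had medians of 0.814 to 1.25, below all mRNAs in rai1Δ and rai1Δnpy1Δ. The large subunit assembly factors had 0.984 to 1.29, below all mRNAs in rai1Δnpy1Δ. The members differed widely among themselves. With UTP4 left out, since its 5′ region had almost no transcript reads, DHR2 had the highest ratio in every deletion strain, from 6.41 in rai1Δnpy1Δ to 13.6 in dxo1Δ. SOF1 had ratios of 3.05 to 6.65 and UTP21 of 1.57 to 5.28. UTP22 had a ratio of 0.0113 in npy1Δ and 0.0289 in dxo1Δrai1Δ, and UTP9 one of 0.228 in dxo1Δ. Of these 41 members 16 had a ratio above 1 in every deletion strain, among them NAN1, UTP6, UTP21, MPP10, IMP3, DHR2, ROK1, UTP14, UTP23, SOF1 and NOC4. A further 11 had one below 1 in every strain with a ratio, among them UTP9, PWP2, UTP22, IMP4 and KRE33. The share of all mRNAs that stay on 1 side in every strain was not computed. The ranking was alike between strains, with a Spearman correlation of 0.672 to 0.971 over the 21 pairs of deletion strains and 40 members. This description carries no p-value, because strains share runs, library sizes, base composition of the genes and the same 5′ windows. Grouped by role, the median ratio was 2.23 for the 3 genes of the Mpp10 complex, 1.74 for the 15 remaining genes, 1.36 for the 6 of UtpB, 1.20 for 6 of UtpA, 1.01 for the 5 helicases, 0.887 for BMS1 and its partner and 0.714 for the 2 rRNA-modifying enzymes. The 2 UtpC genes lay far apart, with 0.0210 for UTP22 and 1.07 for RRP7.

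**Figure D4:**
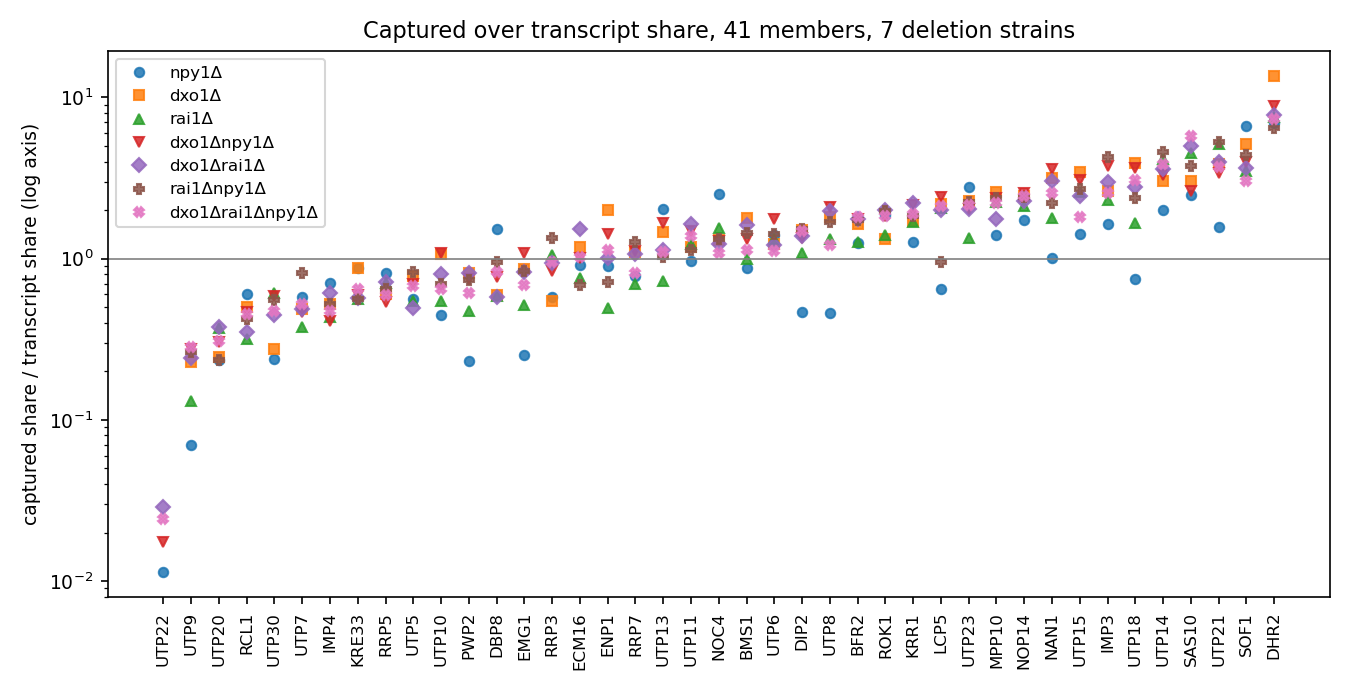
For 41 processome genes (horizontal axis, ordered by median) the share of +ADPRC reads over the share of 5′-region transcriptome reads is drawn (log axis). Points are the 7 deletion strains, pooled over 3 libraries a strain, with a line at 1. UTP22 lies lowest, between 0.0113 and 0.0289 in the strains shown for it, and DHR2 highest, between 6.41 and 13.6.

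Whether a deletion changed the enrichment itself was tested as an interaction between ADPRC treatment and strain. No member was called in any of the 7 deletion strains against WT with edgeR at an adjusted p below 0.05, with 27 to 41 members tested, where 0.304% of all RNAs in npy1Δ, 2.93% in dxo1Δ, 0.547% in rai1Δ, 2.68% in dxo1Δnpy1Δ, 1.03% in dxo1Δrai1Δ, 0.58% in rai1Δnpy1Δ and 1.22% in the triple mutant were higher than in WT. At an unadjusted p below 0.05 there was 1 in npy1Δ, dxo1Δrai1Δ and the triple mutant each and 0 in the other 4 strains. DESeq2 called 0 in npy1Δ, 5 in dxo1Δ, 4 in rai1Δ, 22 in dxo1Δnpy1Δ, 11 in dxo1Δrai1Δ, 3 in rai1Δnpy1Δ and 21 in the triple mutant, all higher than in WT. The 85 captured reads in WT limit this comparison, and the answer depends on the tool.

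A second test compared captured with transcript levels between a deletion strain and WT in 1 model. No member was called in npy1Δ, where 1.66% of all RNAs were higher and 3.76% lower and 3 members were higher and 6 lower at an unadjusted p below 0.05. DESeq2 called 2 members lower there, NAN1 and BFR2. Between 1 and 3 members were higher in each of the other strains, against 7.61% of all RNAs in dxo1Δ, 7.68% in rai1Δ, 8.73% in dxo1Δnpy1Δ, 8.34% in dxo1Δrai1Δ, 6.48% in rai1Δnpy1Δ and 8.35% in the triple mutant. They were DIP2, PWP2 and UTP9, the 3 members with the highest 5′-region transcript level in WT. In these 6 strains edgeR called 0 members lower, where 673, 689, 825, 779, 466 and 782 RNAs were lower in the same order. At an unadjusted p below 0.05 in edgeR, 2 to 3 members were lower per strain. DESeq2 called KRE33 lower in these strains except rai1Δ, and also UTP30 in dxo1Δ and MPP10 in dxo1Δrai1Δ. Many other members had too few WT reads of both kinds to be called higher. UTP8, set at 3 captured reads in WT, would have a WT ratio of 6.74, against at most 2.08 in the deletion strains. Members with more than 3 captured reads in WT had 4 to 18 of them. Of these, NAN1, RRP7, MPP10, UTP20, NOP14 and BFR2 had a higher ratio in WT than in any deletion strain, and SAS10 did not. These counts therefore do not rank the members against all RNAs. DIP2 had no captured read in WT and at least 5.23-fold to 7.38-fold higher relative capture in the 6 strains. PWP2, also without a WT read, was at least 2.10-fold to 2.81-fold higher in 5 of them. UTP9 had 1 captured read in WT. Its relative capture was 9.94-fold that of WT in dxo1Δ, with a 95% counting interval of 1.58 to 413, and 12.3-fold in the triple mutant, with an interval of 2.15 to 491. With coding-sequence counts as the transcript level, an alternative chosen after seeing the data, 0 to 2 members were called per strain and UTP9 and PWP2 were not among them. DIP2 was called with these counts in dxo1Δ and dxo1Δrai1Δ, and not in rai1Δ, dxo1Δnpy1Δ, rai1Δnpy1Δ or the triple mutant (adjusted p = 0.118, 0.099, 0.092 and 0.064 in edgeR). With edgeR's RLE factors the split over all RNAs turned in every strain, in npy1Δ from 100 higher and 226 lower to 216 and 104.

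The same model was applied to strains that differ by 1 deletion, also after the data had been seen. Calls arose only in the 2 comparisons with npy1Δ, which cross sequencing runs, so that the added deletion and the run cannot be told apart. In dxo1Δnpy1Δ against npy1Δ 12 members had higher and 2 lower relative capture, against 13.9 and 10.5% of all RNAs, and in rai1Δnpy1Δ against npy1Δ 8 were higher and 0 lower, against 8.76 and 4.93%. UtpA and UtpB genes held most of the higher ones. NAN1 was higher by 1.80 and 1.105 on the log2 scale, PWP2 by 1.61 and 1.66, DIP2 by 1.39 and 1.67, and UTP21 by 0.97 and 1.73. IMP3 was higher by 1.17 and 1.38. SOF1 had lower relative capture in dxo1Δnpy1Δ, by −0.81. With RLE factors the split over all RNAs went from 850 higher and 641 lower to 607 and 853 in dxo1Δnpy1Δ, and from 524 and 295 to 324 and 464 in rai1Δnpy1Δ, and the members called higher numbered 10 and 5. In the other 7 comparisons edgeR called none, with 0 to 6 members higher and 0 to 6 lower at an unadjusted p below 0.05, and DESeq2 called 1 in the triple mutant against dxo1Δnpy1Δ.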

How the data were processed

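Counts per RNA were deposited without normalization. The authors trimmed the reads, aligned them by bowtie against a BY4742 assembly from Toronto, handled alignments with SAMtools 0.1.13 (per the labels) and counted them with htseq-count, and tested with DESeq2 1.4.5. Transcriptome RNA was depleted of rRNA and fragmented before directional libraries were made, whereas capture RNA was left unfragmented. The authors' tables of comparisons, which hold their fold changes and p-values, were not used, and 0 columns of per-sample values were left out for want of a sample. Totals per library were 4926021 to 17733417 reads in the transcriptome tables (5′ regions for mRNAs), 23241152 to 43152924 with coding sequences, and 470978 to 29300164 in capture.

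Members were read by systematic name from tables of 7620 or 7647 RNAs. Tests were edgeR 4.0.16 quasi-likelihood fits (R 4.3.3, limma 3.58.1) on the counts of the 6 libraries compared, with TMM factors, over RNAs with a normalized base mean above 1, and p-values adjusted over all RNAs tested. The interaction used 12 libraries, and relative capture fitted captured and transcript counts together with totals over mRNA regions as library sizes. DESeq2 1.42.0, other factors, filters and regions, a replicate block and leaving out each library were the alternatives. Levels in RPM, shares and intervals were computed in Python 3.11.15 with SciPy 1.17.1, and intervals cover counting error only. The transcriptome, capture, interaction and relative-capture tests were tried on simulated data in the npy1Δ setting only, with capture called at an adjusted p. Relative capture between mutants and the replicate block were not simulated. The members and lists were chosen with earlier results of these data known. Genes were named by rule: representatives of each role, the 3 largest and 3 smallest changes in npy1Δ, the most captured, the most changed among mutants and those with a called relative capture against WT. No 2 libraries of a group agreed within sampling noise.

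Whether equal replicate numbers pair the samples was checked in 24 comparisons by the correlation of deviations from the group means. Every pair exceeded 0.1 in 2 of them, dxo1Δnpy1Δ against dxo1Δ in the transcriptome (0.166, 0.232 and 0.304) and the triple mutant in capture (0.139, 0.163 and 0.156). These 2 look paired by the data alone, since the labels name no shared batch. The main fits had no block for them either, and the counts with a replicate block are given beside the main ones. Promoter motifs, a planned description, were not used here, because the reference in hand is of another assembly. The auxotrophic marker genes of BY4742 were not analysed here.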

Additional observations from a re-analysis of the deposited data

Results flagged for a closer look

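The values here are the members whose relative capture, the captured level over the transcript level, differed between strains in edgeR's test of that difference (adjusted p below 0.05). DIP2 had no captured read in WT, and its relative capture was at least 7.26-fold higher in dxo1Δ, 5.23-fold in rai1Δ, 6.53-fold in dxo1Δnpy1Δ, 6.68-fold in dxo1Δrai1Δ, 7.38-fold in rai1Δnpy1Δ and 7.18-fold in the triple mutant. PWP2, also with no read in WT, was at least 2.81-fold higher in dxo1Δ, 2.55-fold in dxo1Δnpy1Δ, 2.79-fold in dxo1Δrai1Δ, 2.52-fold in rai1Δnpy1Δ and 2.10-fold in the triple mutant. UTP9, with 1 WT read, had a log2 difference of 3.26 in dxo1Δ, 3.55 in dxo1Δnpy1Δ, 3.37 in dxo1Δrai1Δ and 3.57 in the triple mutant, each a fitted value that rests on that read. With coding-sequence counts as the transcript level, UTP9 and PWP2 were called in no strain and DIP2 in dxo1Δ and dxo1Δrai1Δ only.

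In dxo1Δnpy1Δ against npy1Δ, which cross sequencing runs, the log2 differences of the UtpA genes were 2.14 for UTP8, 1.98 for UTP9, 1.27 for UTP10, 1.102 for UTP15 and 1.80 for NAN1. UTP15 in dxo1Δnpy1Δ was not called enriched over its control, with 249, 233 and 160 RPM with ADPRC and 267, 239 and 560 without. RPM is scaled to mRNA reads, which were 3.77 to 4.49% of these libraries with ADPRC and 0.102 to 0.128% without. The reads themselves were 65, 203 and 28 with ADPRC and 10, 1 and 17 without, so this comparison depends on the scaling. The log2 differences of the UtpB genes were 1.61 for PWP2, 1.39 for DIP2, 2.32 for UTP18 and 0.97 for UTP21. IMP3 had 1.17, the methyltransferase gene EMG1 2.06 and LCP5 1.88, while DBP8 and SOF1 were lower, at −0.99 and −0.81. In rai1Δnpy1Δ against npy1Δ, which also cross runs, the log2 differences were 1.89 for UTP8, 1.105 for NAN1, 1.66 for PWP2, 1.67 for DIP2, 1.73 for UTP21, 1.38 for IMP3, 1.75 for EMG1 and 1.12 for UTP14. Both comparisons share the npy1Δ libraries, and the run and the added deletion cannot be told apart. UTP8, UTP15, UTP18, EMG1, LCP5 and DBP8 are named after their values were seen.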

How the results depend on the processing

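The members raised against WT numbered 40 in all 7 deletion strains with RLE factors, DESeq2, both other filters, all 24 libraries in one fit, the replicate block and in 42 of 42 fits without 1 library. They numbered 41 with total counts (42 in the triple mutant) and 42 over coding sequences. UTP9 in the 5′ region of npy1Δ turned to 0.93 (log2) with total counts and to 3.60 over the coding sequence, and fell under the limit without npy1Δ replicate 1 or 2. The WT capture libraries, with 85 reads on the members, limit every comparison of capture with WT.

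Between mutants, the members called in dxo1Δrai1Δ against dxo1Δ numbered 1 with DESeq2 and 0 to 3 without 1 library. In dxo1Δrai1Δ against rai1Δ they numbered 16 with total counts, 3 without a filter, 0 over coding sequences, 0 with all 24 libraries in one fit and 0 to 13 without 1 library. Over coding sequences they numbered 9 in rai1Δnpy1Δ against npy1Δ, 1 in the triple mutant against dxo1Δnpy1Δ and 0 against dxo1Δrai1Δ, where all 24 libraries in one fit also gave 0 and leaving out 1 library gave 0 to 6.

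Enriched members in WT numbered 3 with total counts, 0 with DESeq2, 0 with filterByExpr and 0 to 2 without 1 library (0 without −ADPRC replicate 2, 2 without +ADPRC replicate 3). With filterByExpr, which tests fewer RNAs, they numbered 18 in npy1Δ, 21 in dxo1Δ, 7 in rai1Δ, 24 in dxo1Δnpy1Δ and 9 in rai1Δnpy1Δ. Without 1 library they numbered 23 to 36 in npy1Δ and 16 to 40 in rai1Δ. The interaction with WT, 0 with edgeR, gave 5, 4, 22, 11, 3 and 21 calls with DESeq2 in dxo1Δ, rai1Δ, dxo1Δnpy1Δ, dxo1Δrai1Δ, rai1Δnpy1Δ and the triple mutant, and the cause was not tested.

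Relative capture against WT gave, with RLE factors, 1 call in npy1Δ, 2 in rai1Δ, 6 in dxo1Δnpy1Δ, 6 in dxo1Δrai1Δ and 7 in the triple mutant. With DESeq2 it gave 2 in npy1Δ, 5 in dxo1Δ, 5 in dxo1Δrai1Δ and 4 in rai1Δnpy1Δ. With coding-sequence counts, chosen after seeing the data, it gave 1 in dxo1Δ, 0 in rai1Δ, 1 in dxo1Δnpy1Δ, 0 in rai1Δnpy1Δ and 0 in the triple mutant. Without 1 library the calls numbered 0 to 1 in npy1Δ, 1 to 2 in rai1Δ, 2 to 5 in dxo1Δrai1Δ and 1 to 3 in rai1Δnpy1Δ. In rai1Δnpy1Δ against npy1Δ they numbered 5 with RLE factors and 4 to 11 without 1 library, and in the triple mutant against dxo1Δnpy1Δ 1 with DESeq2 and 0 to 1 without 1 library.

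With the replicate block, where the samples mostly share only a number, enriched members were 24 in npy1Δ, 29 in rai1Δ, 23 in dxo1Δnpy1Δ and 0 in WT. In the triple mutant, a pairing seen in the data, the block gave 29 against 40. In the transcriptome it gave 1 call in dxo1Δrai1Δ against dxo1Δ and 0 in dxo1Δnpy1Δ against dxo1Δ, as without it. The alternatives for the promoter motifs were not run.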
